A study of Mus musculus with 48 samples.

Results

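The Zfp600 to Zfp999 genes are numbered zinc finger genes of the mouse. They were chosen by symbol, Zfp600 to Zfp999, and selected on their mean level, 0.5 FPKM or more across all libraries of postnatal day (P) 1, P7, P14 and P45. FPKM divides a gene's fragments by its length and by the depth of the library. Of 174 such symbols among the 54100 rows of that table, 143 were members. That level is a description only. It lay between 0.535 FPKM (Zfp808) and 33.2 FPKM (Zfp706), with a median of 3.80, and 14 members lay at 10 FPKM or more. Just inside the threshold were Zfp808 at 0.535 and Zfp663 at 0.632 FPKM, and just outside were Zfp993 at 0.497 and Zfp708 at 0.482 FPKM. Over the age series Zfp808 and Zfp982 stayed under 0.5 FPKM in the Ctrl libraries (means of 0.462 and 0.474) and became members through the mG-cKO libraries, while Zfp648 stayed under it in the mG-cKO libraries (0.493) and became a member through the Ctrl libraries. For these 3 the selection favours a difference between genotypes in that direction.

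RNA of mouse cortex was sequenced in the 41 libraries used here. The age series compared mG-cKO with Ctrl cortex, in 3 libraries a genotype at P1 and P45 and in 2 a genotype at P7 and P14. At P21 there were 3 libraries each of mG-cKO and mG-cKD cortex given RTI, of mG-cKO and mG-cKD cortex without it, and of Ctrl cortex, and a separate table held 3 VPA and 3 CT libraries at P1. The sample titles at P21 name the mG-cKD libraries Het, the mG-cKO libraries MT and the Ctrl libraries WT. The labels spell out neither mG, RTI nor VPA and give no strain, altered gene or Cre driver, so loss of the targeted gene was not checked. The labels do not say whether replicates came from different mice, and all p-values here refer to the spread among libraries, which may be technical. The mG-cKO and mG-cKD comparisons at P21 share the Ctrl libraries, and the RTI comparisons share the libraries without RTI with them.

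Zinc finger proteins of the C2H2 type bind DNA through repeated fingers, each folded around a zinc ion. Many carry a KRAB domain at the amino end, which recruits the corepressor Trim28 (KAP1) and with it the histone methyltransferase Setdb1, and this route is known to silence endogenous retroviruses in mouse embryonic stem cells. KRAB zinc finger genes sit in clusters of close copies that arose by repeated duplication, and a cluster on distal chromosome 4 is known from mouse embryonic stem cells to hold repressors of retroviral elements. Among the members, Zfp809 is known to recognise the primer binding site of murine leukaemia virus, and Zfp932 to bind and repress endogenous retroviruses.

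Reading frames from the GENCODE M21 transcripts gave features that the symbol rule did not use. A KRAB A box was matched in 95 of the 141 members that had a reading frame and was not matched in 46. The pseudogenes Zfp783 and Zfp939 were not scored. Members with the match had a median of 12 C2H2 fingers and those without it a median of 7, with a highest count of 33. Members without the match were the more abundant, with a median level of 6.18 FPKM against 2.79 FPKM in members with it. Chromosome 7 held 33 members, chromosome 17 held 20 and chromosome 8 held 16. When neighbours up to 500 kb apart were joined, 68 members fell into 14 groups of at least 3, and 58 of these 68 had the KRAB match. The largest group held 12 members on chromosome 17 between Zfp677 and Zfp945.

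Promoters of RefSeq (GRCm38.p6, 250 bases before to 50 after the start) matched 122 of the 143 members by symbol. They held a median of 12 CG dinucleotides, against 7 in all 32851 promoters of the same length. Member promoters without the KRAB match held a median of 21 (35 promoters) and those with it a median of 10 (85 promoters). The letters CACGTG, which read the same on both strands, were in 9.84% of member promoters and 7.15% of all promoters. The letters CCGGAAGT, searched on both strands, were in 8.20% of member and 3.89% of all promoters, TATAAA on both strands in 3.28% of member and 13.6% of all promoters, and TGACGTCA, also the same on both strands, in 0 of 122 member and 1.79% of all promoters. Motifs were counted separately, so matches of different motifs may overlap. The promoters of Zfp984, Zfp982 and Zfp933, neighbours on chromosome 4, and of Zfp941 are shown because the genotype results turn on these members. Each is written 5′ to 3′ along the minus strand for Zfp984 (chr4:147809739-147810038), Zfp933 (chr4:147848369-147848668) and Zfp941 (chr7:140822129-140822428) and along the plus strand for Zfp982 (chr4:147492167-147492466), with CG dinucleotides in capitals.
Zfp984: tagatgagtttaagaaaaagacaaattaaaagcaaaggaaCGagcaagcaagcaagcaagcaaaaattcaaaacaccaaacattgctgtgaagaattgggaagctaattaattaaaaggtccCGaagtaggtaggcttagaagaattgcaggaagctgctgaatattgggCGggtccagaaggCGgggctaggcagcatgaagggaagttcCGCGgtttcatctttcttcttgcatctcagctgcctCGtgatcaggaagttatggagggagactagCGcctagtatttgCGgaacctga
Zfp982: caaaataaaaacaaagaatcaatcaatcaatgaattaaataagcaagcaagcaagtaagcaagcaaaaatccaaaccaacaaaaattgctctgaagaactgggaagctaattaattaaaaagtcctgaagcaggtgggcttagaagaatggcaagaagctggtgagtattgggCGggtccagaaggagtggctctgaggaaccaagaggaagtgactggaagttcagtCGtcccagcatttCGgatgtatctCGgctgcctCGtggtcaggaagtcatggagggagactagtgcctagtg
Zfp933: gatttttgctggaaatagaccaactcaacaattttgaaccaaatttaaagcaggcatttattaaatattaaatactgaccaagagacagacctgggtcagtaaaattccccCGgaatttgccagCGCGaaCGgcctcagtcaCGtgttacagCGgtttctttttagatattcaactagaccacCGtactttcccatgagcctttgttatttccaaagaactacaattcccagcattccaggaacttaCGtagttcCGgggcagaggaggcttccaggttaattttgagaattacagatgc
Zfp941: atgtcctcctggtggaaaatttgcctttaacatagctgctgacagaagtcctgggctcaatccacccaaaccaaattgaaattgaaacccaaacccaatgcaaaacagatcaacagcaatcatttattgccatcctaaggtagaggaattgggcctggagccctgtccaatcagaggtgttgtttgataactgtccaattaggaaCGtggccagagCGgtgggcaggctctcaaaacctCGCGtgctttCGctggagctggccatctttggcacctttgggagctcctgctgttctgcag
The Zfp984 and Zfp982 promoters aligned over 254 positions with 80.7% identity, and they held 9 and 5 CG dinucleotides. The Zfp933 promoter held 9 and, alone among these 4, the letters CACGTG. The Zfp941 promoter held 5.

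The values of 21 of the 41 libraries came in whole read steps and gave a depth of 13550000 to 30930000 reads. The other 20, which were all 15 of P21, replicate 3 of both genotypes at P1 and P45, and VPA replicate 3, did not, and their depth is unknown. Within P45, between 19052 and 19137 genes reached 1 FPKM in replicates 1 and 2, while fewer did in replicate 3, 14426 in mG-cKO and 14088 in Ctrl. The small nuclear RNA Rn7sk stood at 18350 to 21130 FPKM in those 4 libraries and at or below 72.8 FPKM in every other library of the table. Results at P45 are therefore also given for replicates 1 and 2 and for the replicate 3 pair. All 6 neuron and 5 cortex markers were present at P1 to P45 and P21. In the VPA table none of the 6 neuron markers and 1 of the 5 cortex markers had a row, so the tissue was not checked there. The summed level of the 8 oligodendrocyte markers, none at 0 at these ages, was 111 to 434 FPKM in mG-cKO against 536 to 1960 FPKM in Ctrl libraries at P45. At P21 it was 269 to 446 FPKM in mG-cKO, 2150 to 2800 FPKM in mG-cKD and 2700 to 4200 FPKM in Ctrl libraries. In bulk cortex, fewer cells of a type and less RNA per cell cannot be told apart, and the part of this shift in the results below was not tested.

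Few members changed between mG-cKO and Ctrl cortex. Differences are in log2(FPKM + 1) throughout, which understates changes of weakly expressed genes, and a member is said to have changed where limma gave an adjusted p under 0.05 over all genes tested. None of 143 members passed at P1, where 0.142% of all genes did, none at P7 (0.162% of all genes) and none at P14 (0.345%). At P45 Zfp984, with a KRAB match, rose and Zfp648, without one, fell, which is 1.40% of the members against 1.16% of all genes. The fall of Zfp648 is in the direction that its selection favours. On simulated data the P45 fit missed more of the changes put in than it recovered, and it also called some unchanged genes. A lack of calls at P45 therefore does not show that levels were alike. Calls at P45, those of Zfp984 and Zfp648 included, may be false. Of the 134 members tested at P21 none passed, where 2.19% of all genes did. At an unadjusted p under 0.05 there were 1, 3, 4, 9 and 12 members at P1, P7, P14, P21 and P45. The share of all genes at that level was 1.74%, 1.63%, 2.80%, 10.4% and 5.84%. The median difference of the members was -0.03, -0.02, 0.01, 0.09 and 0.02 in the same order of ages, and that of all genes was 0.00, 0.00, -0.01, 0.07 and 0.01.

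**Figure D1:**
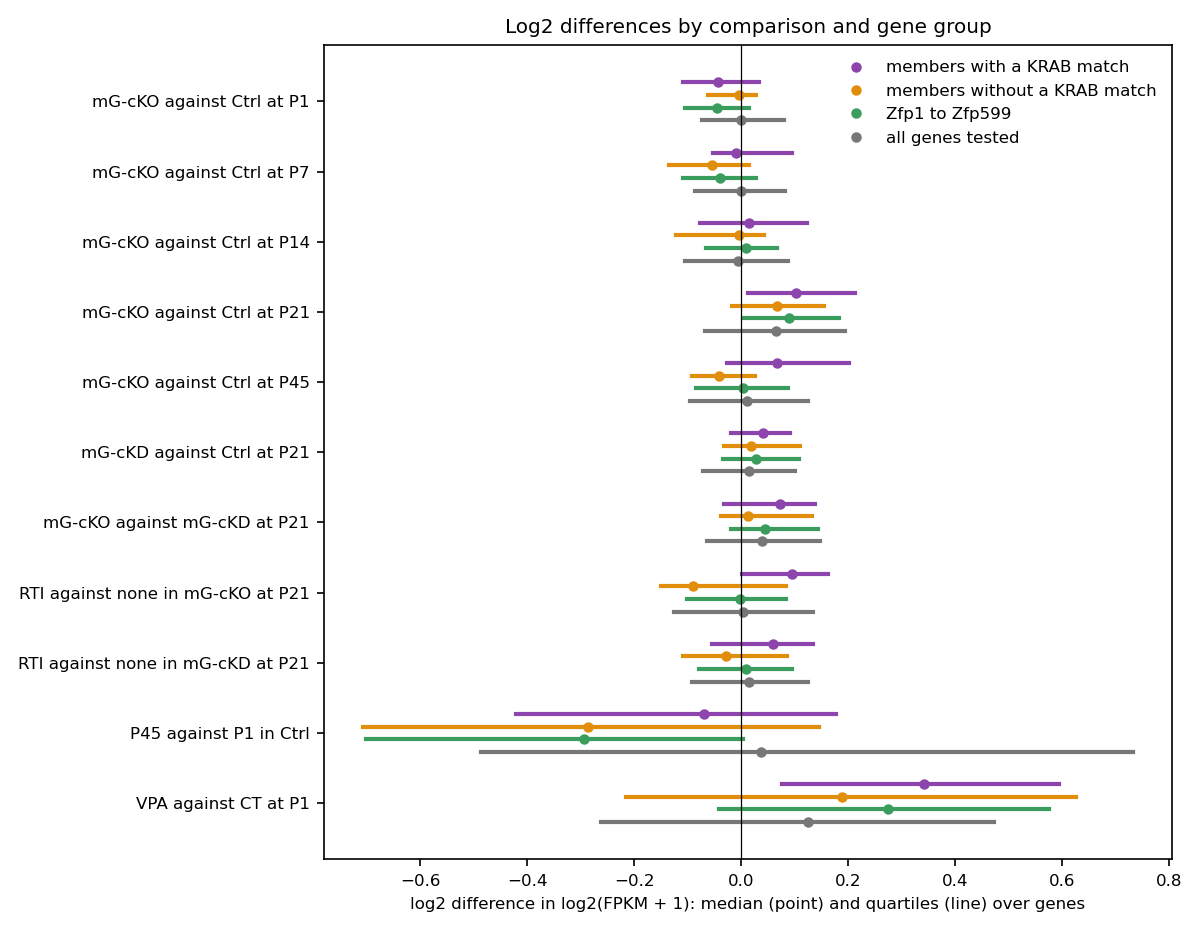
Median (point) and quartiles (line) of the log2 difference in each comparison, for members with and without a KRAB match, the numbered Zfp1 to Zfp599 genes and all genes tested. For age the medians of members with and without the match (-0.07 and -0.29) lie below that of all genes (0.04). For VPA they lie above it (0.34 and 0.19 against 0.12), as does that of Zfp1 to Zfp599 (0.275). For RTI in mG-cKO they lie on either side of it (0.09 and -0.09 against 0.00). The same holds for mG-cKO against Ctrl at P45 (0.07 and -0.04 against 0.01).

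The 3 highest differences at P45 belonged to neighbours on chromosome 4, Zfp982, Zfp984 and Zfp991. Of these, Zfp982 owes its membership to the mG-cKO libraries, where it was high. Zfp984 (ENSMUSG00000078495.10, chr4:147753974-147809788, minus strand) had 1.7, 1.74 and 1.93 FPKM in the 3 mG-cKO libraries at P45, against 0.565, 0.944 and 0.476 FPKM in the 3 Ctrl libraries. Every mG-cKO library was above every Ctrl library, with a log2 difference of 0.76 ± 0.122 (SE), adjusted p = 0.00385. The difference was 0.64 in replicates 1 and 2 and 0.99 in the replicate 3 pair. With the replicate number as a block it remained past the threshold (adjusted p = 0.0484), whereas a fit to the 6 P45 libraries alone called 0.0% of all genes in either direction, Zfp984 included (adjusted p = 0.759).

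At the other ages the genotype difference of Zfp984 did not pass, and Zfp984 fell with age in Ctrl cortex. At P1 the libraries overlapped, with 1.61, 1.61 and 2.0 FPKM in mG-cKO and 1.83, 1.48 and 1.24 FPKM in Ctrl. At P7 they no longer did, with 2.63 and 2.54 FPKM in mG-cKO and 1.5 and 1.67 FPKM in Ctrl. At P14 they were apart again, with 2.1 and 2.41 FPKM in mG-cKO and 1.25 and 1.07 FPKM in Ctrl cortex. With 2 libraries a group such a split is common: groups did not overlap for 20.0% of all genes higher and 22.4% lower at P7, and for 23.5% and 28.7% at P14. Neither age passed the test, with a log2 difference of 0.47 ± 0.149 (SE), adjusted p = 1.0 at P7 and 0.59 ± 0.149 (SE), adjusted p = 0.231 at P14. At P21 the groups overlapped, with 1.09, 0.871 and 0.642 FPKM in mG-cKO and 0.481, 0.923 and 0.447 FPKM in Ctrl, and 0.21 ± 0.181 (SE), adjusted p = 0.816. In Ctrl cortex Zfp984 fell between P1 and P45 by 0.60 on the log2 scale (adjusted p = 0.00135). The difference between the P45 and P1 genotype effects was 0.63 ± 0.172 (SE), adjusted p = 0.334, which did not pass, so an age dependence of the genotype effect was not shown.

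The neighbours of Zfp984 were also higher in mG-cKO at P45 without passing the test. Zfp982 (ENSMUSG00000078496.9, chr4:147492417-147513486, plus strand) had 2.84, 2.87 and 1.25 FPKM in mG-cKO against 0.610, 1.19 and 0.283 FPKM in Ctrl libraries. The groups did not overlap, and the log2 difference was 0.96 ± 0.231 (SE), adjusted p = 0.0716. Replicates 1 and 2 gave 1.04 and the replicate 3 pair 0.81, and with the replicate block Zfp982 passed (adjusted p = 0.0279). It averaged 1.14 FPKM in mG-cKO and 0.474 FPKM in Ctrl libraries over the age series, so its difference is given as a description. Zfp991 (ENSMUSG00000067916.9, chr4:147132038-147180579, plus strand) had 2.25, 3.08 and 1.57 FPKM in mG-cKO against 0.486, 1.22 and 1.28 FPKM in Ctrl libraries. Its groups did not overlap either, with a log2 difference of 0.73 ± 0.191 (SE), adjusted p = 0.122, made of 1.0 in replicates 1 and 2 and 0.18 in the replicate 3 pair. Zfp992 (ENSMUSG00000070605.4, chr4:146449023-146470292, plus strand) had 1.39, 1.73 and 0.481 FPKM in mG-cKO against 0.287, 0.755 and 0.286 FPKM in Ctrl libraries, with overlap and a log2 difference of 0.58 ± 0.203 (SE), adjusted p = 0.418. Zfp933 (ENSMUSG00000059423.13, chr4:147822986-147848366, minus strand), the most abundant of the 5, had 6.79, 7.47 and 3.22 FPKM in mG-cKO against 5.32, 6.02 and 2.43 FPKM in Ctrl libraries. Its groups overlapped, and within replicates 1 and 2 and within the replicate 3 pair the mG-cKO value was the higher, by 0.29 and 0.30 on the log2 scale.

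**Figure D2:**
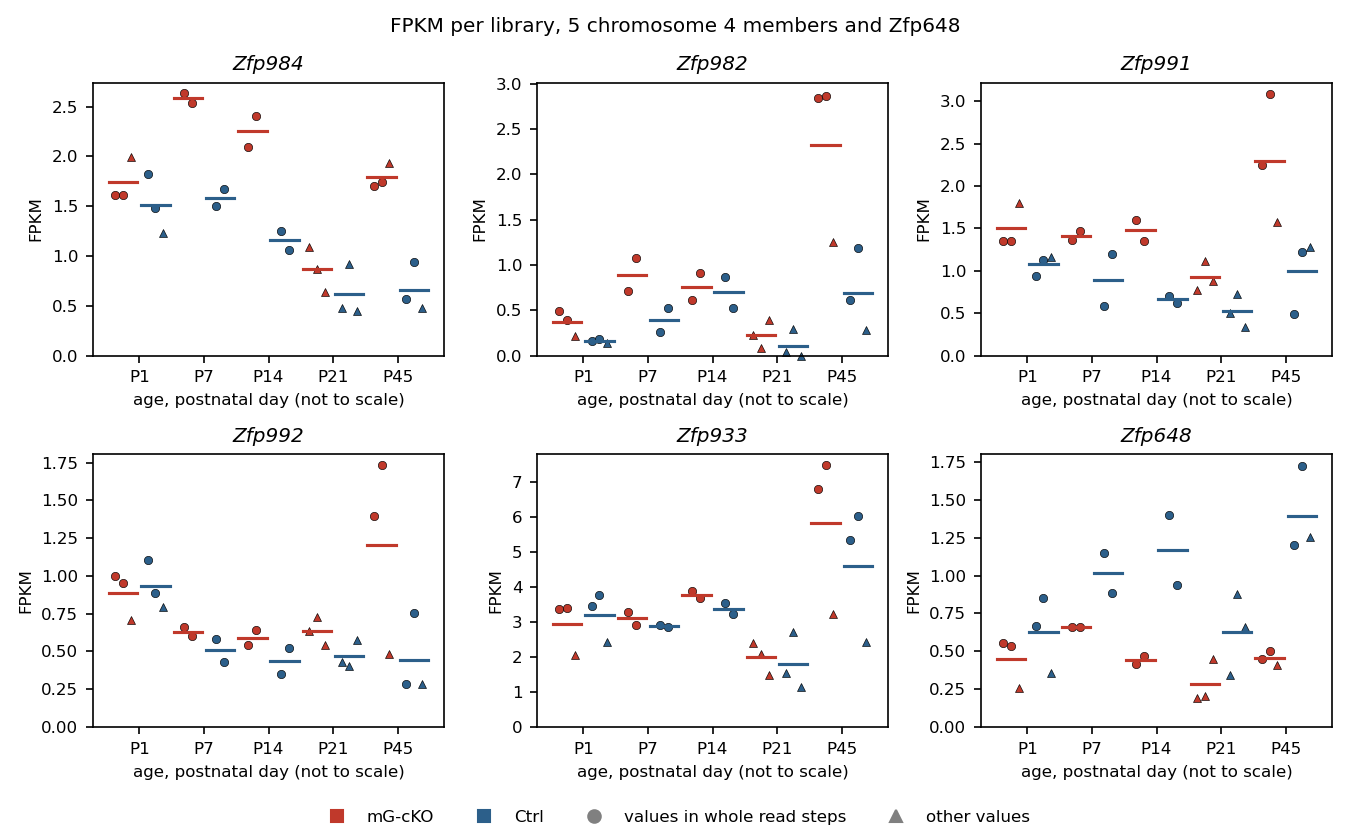
FPKM of 5 chromosome 4 members and of Zfp648 in each library at 5 ages, mG-cKO left of Ctrl, with bars at group means. Circles are libraries with values in whole read steps and triangles the others, and P21 comes from a separately normalised table. At P45 the mG-cKO libraries of Zfp984, Zfp982 and Zfp991 lie above all Ctrl libraries, and those of Zfp648 below.

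Of the members, Zfp991 alone had mG-cKO libraries that exceeded each Ctrl library at each of the 5 ages, where 0.425% of 15534 genes tested in both tables did so (0.746% of 134 members). At P1 it had 1.36, 1.36 and 1.79 FPKM in mG-cKO and 0.943, 1.13 and 1.16 FPKM in Ctrl. At P7 it had 1.36 and 1.47 FPKM in mG-cKO and 0.588 and 1.2 FPKM in Ctrl, and at P14 1.6 and 1.35 FPKM in mG-cKO and 0.708 and 0.620 FPKM in Ctrl. At P21 the values were 0.776, 1.12 and 0.881 FPKM in mG-cKO and 0.504, 0.731 and 0.332 FPKM in Ctrl, close to touching. No age passed the test, with log2 differences of 0.27, 0.37, 0.57, 0.34 and 0.73 at P1, P7, P14, P21 and P45. Of the 134 members 15 had a positive difference at all 5 ages and 4 a negative one, or 11.2% and 2.99%, where the shares over all genes were 11.1% and 6.58%.

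The other numbered Zfp rows of the same stretch, chosen for a look after these values were seen, were weak. Between positions 145510759 and 147848366 of chromosome 4 the age table held 17 of them, 5 of them members and 12 under 0.5 FPKM. For the 12 alone, the mG-cKO mean on the log scale was the higher in 10 at P45, with a median of 0.10 and a range of -0.01 to 0.62. It was the higher in 7 of the 12 at P1 (median 0.01), in 7 at P7 (0.02), in 9 at P14 (0.02) and in 9 at P21 (0.05). Zfp993, just under the level threshold, averaged 1.03 FPKM in mG-cKO and 0.303 FPKM in Ctrl cortex at P45, and Zfp981 averaged 0.454 FPKM in mG-cKO and 0.0556 FPKM in Ctrl. The 6 other coding genes looked at, all at 0.5 FPKM or more, lay beside the stretch and not within it. Their differences at P45 were between -0.15 and 0.09. Among them the retroviral restriction gene Fv1 differed by -0.06. Pseudogenes in or beside the stretch were also higher in mG-cKO at P45, so higher values were not confined to the numbered Zfp rows. Reads may be shared between these rows and the members, so they may not be separate evidence. Of 23 pseudogene rows at 0.1 FPKM or more, 18 were above 0 at P45, with a median of 0.40 and a range of -0.25 to 1.21. At P1 14 of the 23 were above 0, with a median of 0.06. At P7 it was 15 (median 0.12), at P14 16 (0.16) and at P21 17 of 22 (0.05).

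Each of the 5 members has a related gene in the transcript set, and how shared reads were counted is not given in the sources used here. The longest transcripts of Zfp991 and Zfp992 matched over 2491 bases at 99.3% identity. Zfp984 matched Zfp989 over 2134 bases at 87.5%, Zfp982 matched Gm13230 over 1307 bases at 85.7%, and Zfp933 matched AW146154 over 1726 bases at 78.2%. The split of reads between Zfp991 and Zfp992 is therefore uncertain, and reads of the others may also be shared with their matches.

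Zfp648 (ENSMUSG00000066797.6, chr1:154201187-154205689, plus strand), outside every cluster and without a KRAB match, was the member that fell. It passed the level threshold through its Ctrl libraries, which favours a fall. It had 0.447, 0.505 and 0.412 FPKM in mG-cKO against 1.2, 1.72 and 1.25 FPKM in Ctrl libraries at P45, with no overlap and a log2 difference of -0.71 ± 0.153 (SE), adjusted p = 0.0366. At P14 it had 0.419 and 0.469 FPKM in mG-cKO and 1.4 and 0.939 FPKM in Ctrl, again apart, with -0.58 ± 0.187 (SE), adjusted p = 0.740. At P1 the groups overlapped, with 0.557, 0.536 and 0.260 FPKM in mG-cKO and 0.666, 0.854 and 0.356 FPKM in Ctrl. At P21, where it was under the level filter and not tested, it had 0.192, 0.205 and 0.449 FPKM in mG-cKO and 0.344, 0.880 and 0.663 FPKM in Ctrl, with overlap. In Ctrl cortex Zfp648 rose between P1 and P45, by 0.56 ± 0.153 (SE), adjusted p = 0.0101. In 4 of 12 alternative fits this rise of Zfp648 was not called (limma adjusted p up to 0.147). Its P45 call was lost when any 1 of the 6 libraries was left out (adjusted p = 0.0519 to 0.18), under median scaling (0.136, where 0.542% of all genes were called higher and 0.375% lower) and in the 6 libraries alone (0.504). The replicate block kept it (0.0326). With the block 2 members were called higher (Zfp984, Zfp982) and 2 lower (Zfp648, Zfp703), where 2.79% and 2.0% of all genes were. Replicates 1 and 2 alone called 10 higher and 3 lower, where 6.47% and 5.42% of all genes were. The 10 were Zfp808, Zfp982, Zfp984, Zfp977, Zfp992, Zfp976, Zfp991, Zfp934, Zfp933 and Zfp772. Of these Zfp808 alone went the other way in the replicate 3 pair, with -0.365 against 0.522 in replicates 1 and 2. In these counts, calls of Zfp808 and Zfp982 as higher and of Zfp648 as lower go in the direction that their selection favours. Without mG-cKO replicate 3, 5 members were called higher and 0 lower, where 0.882% and 0.573% of all genes were. At P45, groups did not overlap for 12 members higher and 2 lower, against 4.69% and 2.63% of all genes. At P14 the same fit called Zfp984 higher and Zfp871, Zfp648, Zfp697 and Zfp738 lower, where 2.19% and 3.72% of all genes were called.

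At P45 the median of the members with a KRAB match was above 0 and that of the others below 0, and the difference between these classes was not tested. In mG-cKO against Ctrl at P45 the median difference was 0.07 over 95 members with the match and -0.04 over 46 without it, and 62 and 16 of them were above 0. Over all genes the median was 0.01 and 52.7% were above 0. At P1 the medians were -0.04 with the match and 0.00 without it. At P21 they were 0.10 over 88 members and 0.07 over 44, against 0.07 over all genes. By cluster, the 4 members of chromosome 4 from Zfp991 to Zfp933 had a median of 0.74 at P45. Next came the 3 of chromosome 7 from Zfp977 to Zfp975 with 0.39, and the 3 of chromosome 10 from Zfp781 to Zfp938 with 0.31, where no member passed. Zfp977 had 1.26, 1.8 and 0.472 FPKM in mG-cKO against 0.477, 0.683 and 0.150 FPKM in Ctrl libraries at P45, with overlap.

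**Figure D3:**
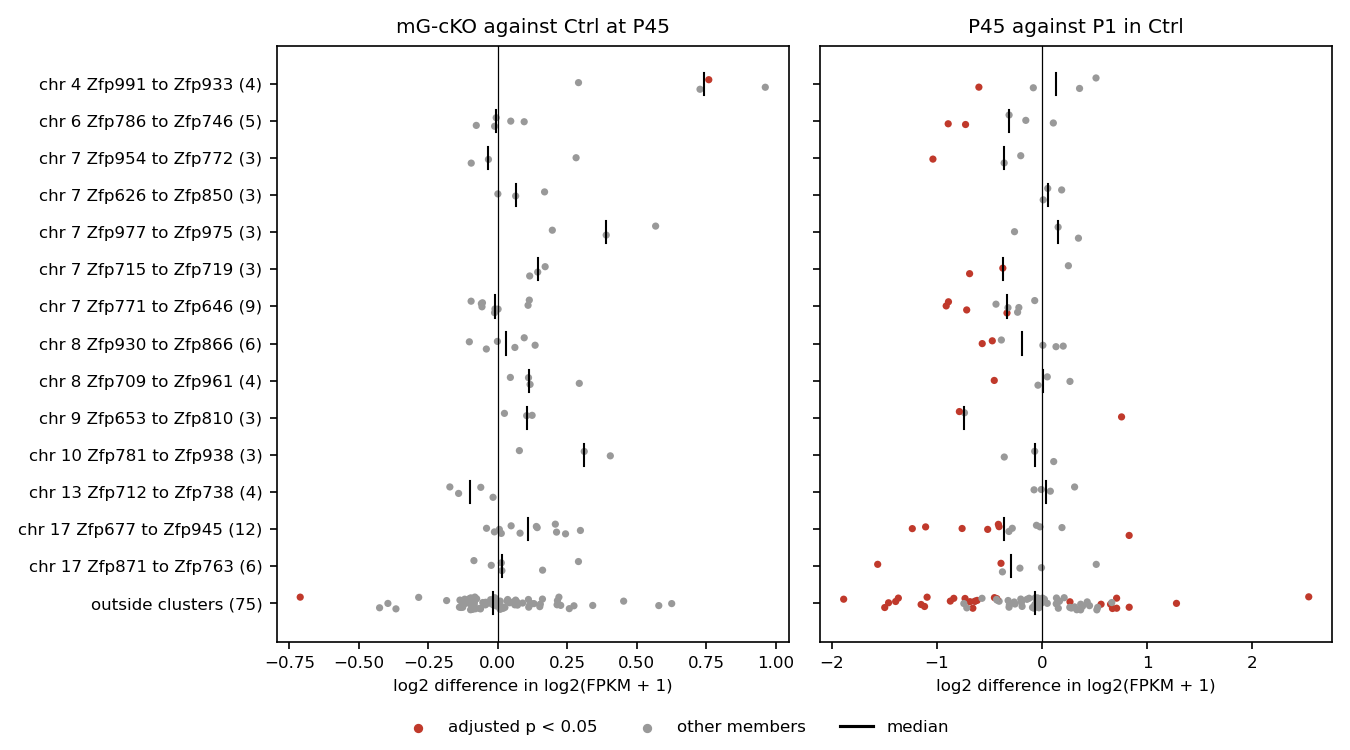
Log2 difference of each member by chromosomal cluster (number of members in brackets), for mG-cKO against Ctrl at P45 on the left and P45 against P1 in Ctrl on the right. Red points have an adjusted p under 0.05, grey points do not, black bars are medians, and vertical scatter within a row carries no value. The chromosome 4 cluster has the highest median at P45, 0.74, and the chromosome 17 cluster of 12 members has 7 called members in the age comparison.

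At P21 the smallest p-values belonged to Zfp941 and Zfp951, both with a KRAB match. Zfp941 (ENSMUSG00000060314.13, chr7:140807449-140822178, minus strand) had 8.78, 7.2 and 8.12 FPKM in mG-cKO, 6.3, 4.45 and 5.3 FPKM in mG-cKD and 3.94, 5.71 and 4.04 FPKM in Ctrl libraries. All mG-cKO libraries were above the others, while mG-cKD and Ctrl overlapped. The log2 difference was 0.71 ± 0.186 (SE), adjusted p = 0.0726 against Ctrl and 0.52 ± 0.186 (SE), adjusted p = 0.374 against mG-cKD. With the replicate block the second comparison passed (adjusted p = 0.0226) and the first did not (0.157). Without Ctrl replicate 2, the highest Ctrl library, the first passed (0.0414). The block called 3.04% of all genes higher and 1.41% lower against mG-cKD, and the fit without that Ctrl library called 1.08% higher and 0.816% lower. At P7 Zfp941 had 3.74 and 3.71 FPKM in mG-cKO and 2.68 and 2.12 FPKM in Ctrl. At P45 it had 9.05, 9.02 and 9.51 FPKM in mG-cKO and 7.89, 6.95 and 7.48 FPKM in Ctrl, apart at both ages and not past the test (0.48 ± 0.137 (SE), adjusted p = 0.780 at P7 and 0.27 ± 0.112 (SE), adjusted p = 0.638 at P45).

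Zfp951 (ENSMUSG00000072774.10, chr5:104813169-104860070, minus strand) had 1.44, 1.23 and 1.43 FPKM in mG-cKO, 0.582, 0.461 and 1.21 FPKM in mG-cKD and 0.544, 0.563 and 0.742 FPKM in Ctrl libraries. The mG-cKO and Ctrl libraries did not overlap, with a log2 difference of 0.55 ± 0.166 (SE), adjusted p = 0.143. Zfp991, described above, had the next smallest p (0.34, adjusted p = 0.288). Zfp995 and Zfp960 followed, with 0.40 (adjusted p = 0.296) and 0.44 (adjusted p = 0.310). Non-overlapping groups with mG-cKO higher were found for 14 of 134 members at P21 and with mG-cKO lower for 0, where all genes gave 9.81% and 4.69%. Median scaling lowered both medians at P21 alike, to 0.00 over the members and -0.03 over all genes.

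Of 9 members with a role known from other work, limma called none at any age in the fit over all libraries of a table. Zfp809 averaged 3.7 ± 0.813 FPKM in mG-cKO and 2.61 ± 0.459 FPKM in Ctrl cortex at P1 (SD, n = 3 each), and the libraries did not overlap. At P7 it had 3.73 and 3.34 FPKM in mG-cKO and 2.31 and 2.21 FPKM in Ctrl. Its log2 difference was 0.38, 0.48, 0.17, 0.29 and 0.10 at P1, P7, P14, P21 and P45, and each age had an adjusted p of 0.816 or more. Zfp932 gave 0.03, 0.23, 0.29, 0.31 and 0.15 at the same ages. Zfp961 was between -0.08 at P21 and 0.28 at P1. Zfp638, whose human counterpart silences unintegrated retroviral DNA, was between -0.12 and -0.06. Zfp711, an X-linked gene whose human counterpart is mutated in intellectual disability, was between -0.08 and 0.36. Zfp609, which works with cohesin loading and Integrator in neural progenitors, was between -0.09 and 0.16. Zfp827 stayed between -0.08 and 0.08, Zfp746 (PARIS, a repressor of Ppargc1a) between -0.14 and 0.15, and Zfp703 between -0.40 and 0.03. Zfp703 averaged 9.57 ± 4.77 FPKM in mG-cKO and 13.3 ± 7.89 FPKM in Ctrl cortex at P45 (SD, n = 3 each), and the fit with the replicate block called this difference (adjusted p = 0.0489).

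The genotype effects at P45 and P1 did not differ for any of 143 members by limma, where 0.36% of all genes passed. At an unadjusted p under 0.05 there were 6 members (4.20%, against 2.92% of all genes). Besides Zfp984 the smallest p-values were those of Zfp948, Zfp648, Zfp617 and Zfp977, with differences of 0.43, -0.55, 0.29 and 0.73. At P7 the fit to replicates 1 and 2 called Zfp809 alone (adjusted p = 0.0269), where 1.24% of all genes were called higher and 0.801% lower. For the difference between P45 and P1 the same fit called Zfp977, Zfp808, Zfp976 and Zfp984 higher (adjusted p = 0.0242 to 0.0398) and no member lower, where 2.07% and 2.1% of all genes were called.

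No member changed in mG-cKD against Ctrl cortex at P21, where limma called 0.0% of 16420 genes and no member reached an unadjusted p under 0.05. The median difference of the members was 0.04 and that of all genes 0.01. The smallest p-values were those of Zfp712, Zfp933, Zfp960, Zfp618 and Zfp830. Zfp618, known to bind Uhrf2, had 0.848, 0.705 and 0.938 FPKM in mG-cKD and 0.499, 0.599 and 0.542 FPKM in Ctrl libraries, which did not overlap, with 0.24 ± 0.170 (SE), adjusted p = 1.0. Zfp933 had 2.43, 2.64 and 2.0 FPKM in mG-cKD and 1.53, 2.7 and 1.15 FPKM in Ctrl libraries, with overlap. Between mG-cKO and mG-cKD no member passed either (1.53% of all genes did), and 6 members, or 4.48%, had an unadjusted p under 0.05, against 7.39% of all genes. Zfp948 had 4.52, 4.8 and 5.34 FPKM in mG-cKO and 2.91, 3.64 and 3.64 FPKM in mG-cKD libraries, apart, with 0.42 ± 0.128 (SE), adjusted p = 0.196. Zfp951, Zfp991 and Zfp934 had 0.45, 0.32 and 0.44.

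No member changed with RTI. In mG-cKO cortex 0 of 134 members passed limma, where 0.00609% of all genes did, and 3, or 2.24%, had an unadjusted p under 0.05, against 3.95% of all genes. Zfp984 had 1.68, 1.57 and 1.45 FPKM in mG-cKO cortex given RTI and 1.09, 0.871 and 0.642 FPKM without it. The groups did not overlap, with a log2 difference of 0.46 ± 0.181 (SE), adjusted p = 0.962. Zfp949 had 7.2, 5.92 and 5.89 FPKM with RTI and 5.14, 4.78 and 4.12 FPKM without, and Zfp651, a gene of the BTB zinc finger family, had 11.9, 14.8 and 15.5 FPKM with RTI and 16.3, 18.5 and 21.5 FPKM without. Their differences were 0.37 and -0.39, and those of Zfp628 and Zfp763 were -0.37 and 0.37. The median was 0.09 over 88 members with the KRAB match, of which 66 were above 0, and -0.09 over 44 without it, of which 15 were above 0, and 50.7% of all genes were above 0.

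In mG-cKD cortex 0 of 134 members passed with RTI (0.0% of all genes), and 1, or 0.746%, had an unadjusted p under 0.05, against 2.15% of all genes. This was Zfp948, with 4.66, 4.13 and 4.7 FPKM with RTI and 2.91, 3.64 and 3.64 FPKM without, apart, and 0.33 ± 0.128 (SE), adjusted p = 1.0. Zfp781, Zfp827, Zfp740 and Zfp637 came next with 0.26, -0.27, 0.35 and -0.25. The median was 0.06 over the 88 members with the KRAB match and -0.03 over the 44 without it. The RTI effects in mG-cKO and mG-cKD did not differ for any member (limma, 0.0% of all genes, and 0 members at an unadjusted p under 0.05). The smallest p-values were those of Zfp948, Zfp937, Zfp949, Zfp651 and Zfp975, with differences of -0.38, -0.45, 0.25, -0.29 and 0.22.

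Between P1 and P45 more members fell than rose in Ctrl cortex. In Ctrl replicates 1 and 2 Rn7sk stood at 20520 and 21130 FPKM at P45, against 2.537 and 1.139 FPKM at P1. At P45 19088 and 19137 genes reached 1 FPKM in these replicates, against 14435 and 14501 at P1. For these replicates age and this difference between libraries cannot be told apart, here and in the age results below. In P45 against P1 Ctrl cortex 50 of 143 members changed, or 35.0%, where 36.6% of all genes did, a share near the background. Of these 11 rose and 39 fell, against 17.2% of all genes that rose and 19.4% that fell. The median difference was -0.12 over the members, -0.30 over 184 numbered Zfp1 to Zfp599 genes at 0.5 FPKM or more (10 rose and 65 fell) and 0.04 over all genes. Median scaling moved the median of all genes from 0.04 to -0.13 and gave 9 members that rose and 50 that fell, where 12.1% and 24.5% of all genes did. All 11 and all 39 had the same sign within replicates 1 and 2 and within the replicate 3 pair. These are the libraries that gave the calls, so the shared sign is no independent check. Replicates 1 and 2 alone called 36 members higher and 59 lower (40.9% and 36.8% of all genes), and the 6 libraries alone 6 higher and 21 lower (7.78% and 9.21% of all genes). The members with the KRAB match had a median of -0.07, and 25 of 95 fell. Those without it had a median of -0.29, and 14 of 46 fell, where 19.4% of all genes did. Members under 0.5 FPKM numbered 4 in P45 and 3 in P1 Ctrl cortex.

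Zfp831 rose most. It passed the level threshold through its P14 and P45 libraries, so a rise had to appear. In Ctrl cortex it had 0.0571, 0.0769 and 0.0577 FPKM at P1, 0.343 and 0.270 FPKM at P7, 1.83 and 2.14 FPKM at P14 and 6.15, 6.54 and 3.4 FPKM at P45. Each age lay above the one before, and the P45 to P1 difference was 2.54 ± 0.190 (SE), adjusted p = 1.24e-07. The mG-cKO libraries followed the same course, with 0.0591, 0.0272 and 0.0648 FPKM at P1 and 5.98, 6.12 and 3.66 FPKM at P45. Zfp941 had 7.89, 6.95 and 7.48 FPKM at P45 against 2.36, 2.92 and 2.16 FPKM at P1 in Ctrl cortex, a difference of 1.28 ± 0.112 (SE), adjusted p = 5.83e-07. The others of the 10 largest rises were Zfp931 (0.83), Zfp758 (0.83), Zfp809 (0.76), Zfp971 (0.71), Zfp655 (0.71), Zfp612 (0.67), Zfp800 (0.65) and Zfp648. The calls of Zfp648, Zfp758, Zfp971 and Zfp809 were lost in 4, 3, 2 and 1 of 12 alternative fits. The retrovirus repressor Zfp809 had 5.04, 3.83 and 6.67 FPKM at P45 and 2.44, 2.26 and 3.13 FPKM at P1, with no overlap.

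**Figure D4:**
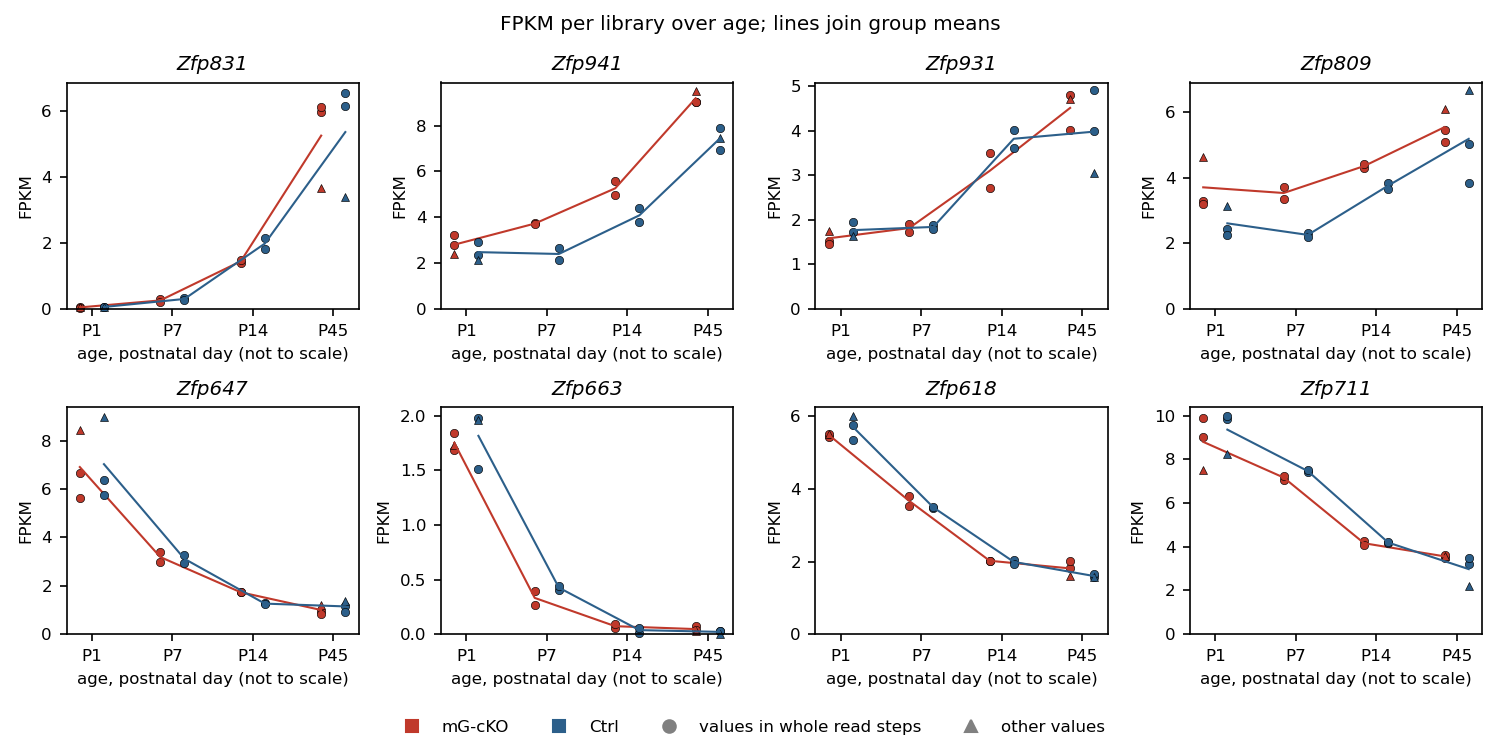
FPKM per library of 8 members at P1, P7, P14 and P45, mG-cKO left of Ctrl, with lines joining group means, circles for whole-read libraries and triangles for the others. The 4 members of the top row rose between P1 and P45 in Ctrl cortex and the 4 of the bottom row fell, and the mG-cKO means run in the same direction as the Ctrl means.

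Zfp647 fell most. In Ctrl cortex it had 6.36, 5.75 and 8.96 FPKM at P1, 3.28 and 2.94 FPKM at P7, 1.3 and 1.22 FPKM at P14 and 1.15, 0.922 and 1.36 FPKM at P45, with a difference of -1.89 ± 0.154 (SE), adjusted p = 2.81e-07 between P45 and P1. Most of the drop was complete by P14. Zfp663 was near 0 by P14, with 1.98, 1.51 and 1.96 FPKM at P1, 0.408 and 0.443 FPKM at P7 and 0.0127 and 0.0600 FPKM at P14, and the P45 libraries gave 0.0301, 0.0303 and 0 FPKM (-1.46 ± 0.130 (SE), adjusted p = 7.13e-07). It passed the level threshold through its P1 libraries, so a difference between ages had to appear. Zfp618 had 1.56, 1.65 and 1.58 FPKM at P45 against 5.76, 5.36 and 6.02 FPKM at P1, with -1.37 ± 0.0795 (SE), adjusted p = 1.12e-08, the smallest p of the members. Zfp711 had 3.23, 3.5 and 2.2 FPKM at P45 against 9.83, 9.98 and 8.26 FPKM at P1, with -1.39 ± 0.126 (SE), adjusted p = 8.23e-07.

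The others of the 10 largest falls were Zfp811 (-1.56), Zfp821 (-1.50), Zfp946 (-1.24), Zfp704 (-1.15), Zfp846 (-1.12) and Zfp760 (-1.11). Zfp821 had 4.87, 4.25 and 15.4 FPKM at P45 against 16.9, 15.8 and 37.0 FPKM at P1. Its replicate 3 stood well above replicates 1 and 2 at both ages, and the call was lost without P1 replicate 3 (adjusted p = 0.108) or without P45 replicate 1 (0.103) or 2 (0.117). Zfp609 also fell, to 11.4 ± 1.49 FPKM at P45 against 18.5 ± 0.870 FPKM at P1 (SD, n = 3 each). The 12 clustered members on chromosome 17 from Zfp677 to Zfp945 had a median of -0.36 with 7 called, and the 9 on chromosome 7 from Zfp771 to Zfp646 had -0.33 with 4 called.

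Many silencing partners of KRAB proteins fell with age. Of 34 tested genes of the silencing list 18 fell and 0 rose in P45 against P1 Ctrl cortex, with a median of -0.69. Over all genes 19.4% fell and 17.2% rose. Trim28 averaged 27.2 ± 6.78 FPKM at P45 and 73.4 ± 14.7 FPKM at P1 (SD, n = 3 each). Setdb1 averaged 9.40 ± 0.171 FPKM at P45 and 16.2 ± 1.15 FPKM at P1, and the maintenance methyltransferase Dnmt1 12.1 ± 3.57 FPKM at P45 and 31.0 ± 8.89 FPKM at P1. The summed neural progenitor markers stood at 24.6 to 32.3 FPKM at P45 against 59.5 to 68.9 FPKM at P1, and the summed proliferation markers at 0.513 to 0.914 FPKM at P45 against 7.99 to 10.3 FPKM at P1. The part of these in the members' fall was not tested. Between mG-cKO and Ctrl none of the 34 changed at P1, P7, P14 or P45. At P21 Atf7ip, a partner of Setdb1, rose to 16.6 ± 0.272 FPKM in mG-cKO against 8.63 ± 2.53 FPKM in Ctrl cortex (log2 difference 0.90 ± 0.21 SE, limma adjusted p = 0.0362). Of the other 30 tested 0 passed, where 2.19% of all genes did.

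No member passed limma between VPA and CT cortex at P1, where 0.0% of 11264 genes did and the smallest adjusted p of all genes was 0.0686. On simulated data this fit did not recover the changes put in, so the lack of calls does not show that levels were alike. The VPA table held rows for 119 members, of which 107 were tested. The median difference was 0.31 over these 107, of which 84 were above 0, against 0.12 and 59.2% over all genes tested. An unadjusted limma p under 0.05 was found for 29 members, or 27.1%, against 23.5% of all genes. The Zfp1 to Zfp599 genes shifted much alike, so the shift was not particular to the members. Of 126 tested, 73.8% were above 0, with a median of 0.275, and 24.6% had an unadjusted p under 0.05. Non-overlapping groups with VPA higher were found for 27 members and with VPA lower for 9, where all genes gave 21.5% and 14.5%. The median member level was 2.45, 2.65 and 2.20 FPKM in VPA and 1.39, 1.30 and 2.27 FPKM in CT replicates 1, 2 and 3, so that CT replicate 3 fell within the VPA range. VPA replicate 3, the library without whole read steps, had an FPKM sum of 150149, against 66557 to 72783 in the other 5.

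The 5 members with the smallest p were higher in VPA. Zfp663 had 2.19, 1.87 and 1.93 FPKM in VPA against 0.0196, 0.0383 and 0.421 FPKM in CT libraries, with no overlap and a log2 difference of 1.38 ± 0.182 (SE), adjusted p = 0.0757. The P1 Ctrl libraries of the age table, normalised separately, had 1.98, 1.51 and 1.96 FPKM. Their FPKM sums were 246046 to 364520, against 66557 to 150149 in the VPA and CT libraries. Levels are therefore not on one scale and cannot be compared between the tables. Zfp946 had 8.25, 7.2 and 7.21 FPKM in VPA against 3.18, 2.95 and 4.58 FPKM in CT libraries, with 0.92 ± 0.192 (SE), adjusted p = 0.107. Zfp950 and Zfp612, both with a KRAB match, had 2.14, 1.8 and 3.24 FPKM and 3.82, 5.26 and 3.35 FPKM in VPA libraries. In CT libraries they had 0.689, 0.756 and 0.903 FPKM and 1.2, 1.07 and 2.3 FPKM. Zfp672 had 4.61, 4.6 and 9.48 FPKM in VPA against 1.01, 1.18 and 2.92 FPKM in CT libraries, with 1.42 ± 0.367 (SE), adjusted p = 0.126. Zfp711 was lower, with 6.14, 6.75 and 3.73 FPKM in VPA against 8.87, 10.4 and 9.46 FPKM in CT libraries, no overlap and -0.72 ± 0.230 (SE), adjusted p = 0.153.

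These VPA results rest on which libraries enter. Without CT replicate 3 limma called Zfp663, Zfp658, Zfp983 and Zfp946 (adjusted p = 0.04 to 0.0479), all higher, where 1.1% of all genes were called higher and 1.58% lower. Without VPA replicate 3 it called Zfp663 (0.0458), where 1.01% of all genes were called higher and 0.577% lower. Without both, a choice made after seeing the data, it called 53 members higher and 9 lower of 107, where 20.7% and 15.6% of all genes were called. After median scaling the median difference was 0.22 over the members and 0.03 over all genes. The summed neural progenitor markers with a row (4 of 6) were 20.9 to 41.7 FPKM in VPA against 14.5 to 22.2 FPKM in CT libraries, and their part in the result was not tested.

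**Figure D5:**
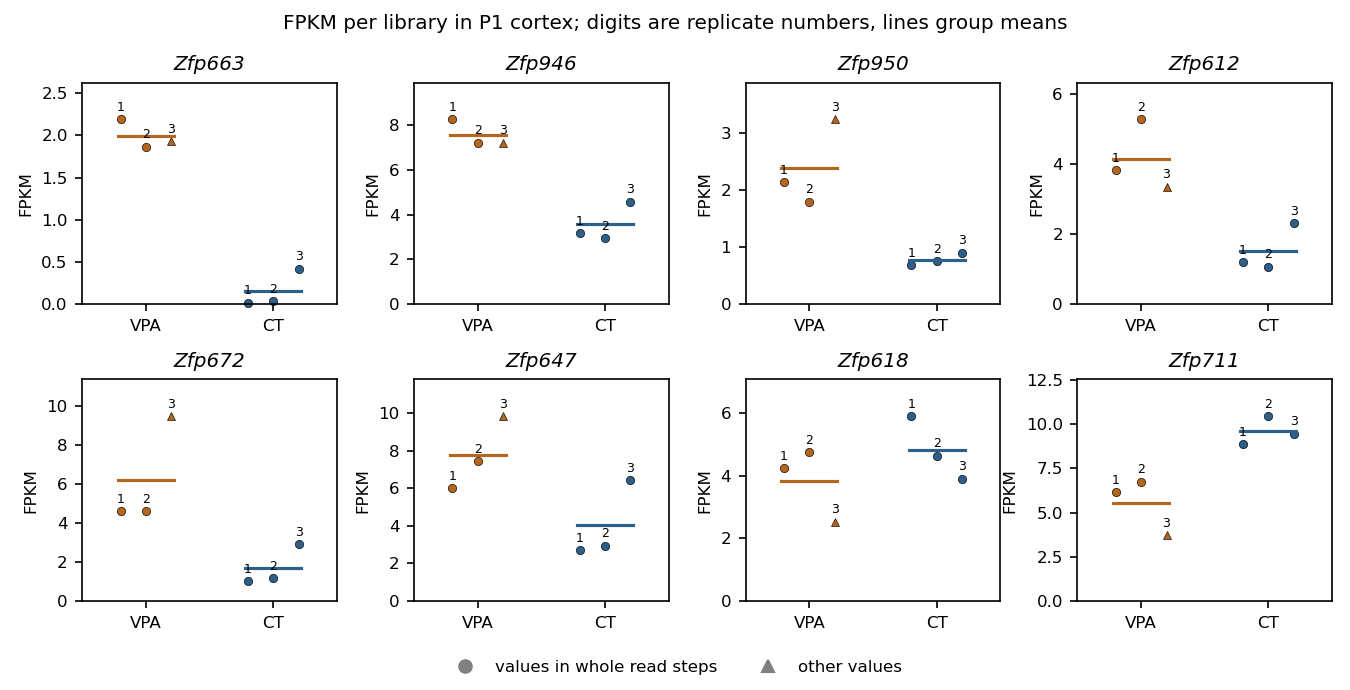
FPKM per library of 8 members in P1 cortex, VPA left of CT, with replicate numbers at the points, bars at group means, and a triangle for the library without whole read steps. Zfp663, Zfp946, Zfp950, Zfp612 and Zfp672 do not overlap and are higher in VPA, and CT replicate 3 is the CT library nearest to VPA in each of them, while Zfp711 is lower in VPA.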

How the data were processed

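The deposited values are FPKM per gene in mouse cortex libraries, made by the authors. Per the submitters' processing notes, the tools were featureCounts 2.0.4, STAR 2.5.3a and Trim Galore 0.6.5 and the build was mm10. The treatment of shared reads is not given in the sources used here. Of 48 labelled samples 41 were used, and the remaining 7, including the NPC samples, were not analysed here. Members and lists were chosen with earlier results of these data known. Ensembl identifiers joined the tables, and GENCODE M21 (GRCm38) gave coordinates, exon lengths and reading frames.

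limma 3.58.1 (R 4.3.3, statmod 1.5.0, trend and robust) was fitted to log2(FPKM + 1) within a table, with 1 mean per group, over the genes whose mean reached 0.5 FPKM, for 13 comparisons. P-values were Benjamini-Hochberg adjusted over all genes tested, with a threshold of 0.05. The fit was tested on simulated data for P45, P21 and VPA. For P45 more of the changes put in were missed than recovered, and for P21 most were recovered. For VPA they were not recovered. Some unchanged genes were called at P45 and P21. Whole read steps were values that, times exon length, were multiples of a common unit within 0.05 reads. Members were named if called, up to 10 rises and 10 falls, otherwise by the 5 smallest p-values, plus members of known role. Zfp708 and Zfp804a of the known-role list are not members.

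Replicate numbers were taken as possible pairs where every same-numbered correlation of deviations exceeded 0.1 over 3 pairs. For mG-cKO and Ctrl these correlations were 0.782, 0.71 and 0.942 at P1, 0.871, 0.887 and 0.969 at P45, and 0.157, 0.125 and 0.698 at P21. The mG-cKO and mG-cKD libraries gave 0.522, 0.331 and 0.693, and Ctrl libraries of P45 and P1 gave 0.584, 0.556 and 0.665. The rule thus also passed libraries of different ages. For mG-cKO and Ctrl the best match had the same number for 2 of 3 at P1 and P45 and 1 of 3 at P21. It did for 3 of 3 between mG-cKO and mG-cKD, and for 2 of 3 between Ctrl of P45 and P1. Replicate 3 of the age series also differs in its value steps, so there pairs and a shared kind of library cannot be told apart. Transcripts were compared with blastn 2.17.0. Python 3.11.15, pandas 2.3.3, numpy 2.4.6 and matplotlib 3.10.9 were used.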

Additional observations from a re-analysis of the deposited data

How the results depend on the processing

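The alternatives were a pseudocount of 0.1, no filter, median scaling, the compared groups alone, the replicate block, replicates 1 and 2 only and each library left out. For mG-cKO against Ctrl at P45 the number of changed members, 2, became 0 with the compared groups alone (0.0% of all genes), 1 with median scaling (0.542% of all genes higher and 0.375% lower), 4 with the replicate block and 13 with replicates 1 and 2 only, and it ran between 1 and 5 when a library was left out (5 without mG-cKO replicate 3). Replicates 1 and 2 only gave 1 changed member at P7 (1.24% of all genes higher and 0.801% lower), 5 at P14, 4 for the difference between P45 and P1 effects and 95 for age in Ctrl, where the compared groups alone gave 27. The replicate block gave 1 member for mG-cKO against mG-cKD (3.04% of all genes higher and 1.41% lower) and, apart from these and the P45 count, changed no count by over 1.5 times. With a library left out, mG-cKO against Ctrl at P21 gave 0 to 1 members (1 without Ctrl replicate 2) and VPA against CT gave 0 to 4 (4 without CT replicate 3). Without VPA replicate 3 and CT replicate 3, chosen after seeing the data, VPA against CT gave 62. The cause of these shifts was not tested. No direction reversed in these alternatives for the members named in a comparison by call or by smallest p-value. Other members in the text, Zfp808 among them, were not part of that check. Depth is unknown in 20 of 41 libraries.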
